A study of Homo sapiens with 8 samples.

Results

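Long intergenic noncoding RNAs (lincRNAs) are transcripts that are mostly spliced and polyadenylated like messenger RNAs but are not translated into known proteins. The gene nomenclature gives those with no better name the letters LINC and a serial number, so the group is defined by its naming and not by a shared function. Most are made at low levels and in few cell types, and for most loci no function is established. Some act on neighbouring genes and others bind proteins or RNAs away from their site of transcription. The present description takes every gene whose current symbol is LINC followed by digits and whose mean normalized count over the 8 libraries was 10 or more. Of 27682 gene IDs in the authors' normalized table, 853 carried such a symbol and 260 reached that mean.

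The cells were MDA-MB-231, an established human triple-negative breast cancer line, which lacks the oestrogen and progesterone receptors and HER2 amplification. The submitters' title names EMD37 as a compound that triggers endoplasmic reticulum (ER) stress in cancer cells. Cells received DMSO, the solvent vehicle (0 µM EMD37), or EMD37 at 0.5 µM, and RNA was taken at 12 h and at 24 h. Each of the 4 groups (vehicle 12 h, EMD37 12 h, vehicle 24 h, EMD37 24 h) had 2 libraries, marked A and B. All groups came from 1 cell line. The labels leave unstated whether A and B were grown separately, and the spread behind each p-value is that between such libraries, which may be technical. The RNA was bulk, so a change in the number of cells of one kind and a change in RNA per cell cannot be told apart.

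Libraries held 10.06 M to 12.64 M reads (M, mega), and the LINC genes took 0.208% to 0.269% of them. Replicate libraries correlated at 0.9917 to 0.9949 across genes. Markers of the line were abundant, with VIM, the intermediate filament of mesenchymal cells, at 12995 to 17863 normalized counts. Of the 9 luminal markers, the keratins KRT8 (1178 to 1967) and KRT18 (2629 to 3446) were abundant, while the adhesion genes EPCAM and CDH1 did not exceed 2.85 and 2.02. The receptor genes ESR1 (4.74 to 25.3), PGR (20.3 to 40.5) and ERBB2 (28.9 to 53.2) were detected at low levels. GATA3 (8.34 to 24.2) and FOXA1 (2.14 to 10.1) were low as well. Over the 5 leukocyte markers the summed level was 7.06 to 20.4, and over the 5 fibroblast markers 15.7 to 41.3. The summed level of the 6 basal and mesenchymal markers was 61547 to 66172 in the EMD37 24 h libraries and 71483 to 77803 in vehicle at 24 h. They did not move as 1 set: at 24 h EGFR (log2 0.90, SE 0.08) was higher with EMD37. CAV1 (-0.70), CD44 (-0.37) and AXL (-0.33) were lower. The changes of MSN (0.12, SE 0.08) and VIM (-0.13, SE 0.10) were small beside their errors. The sum of the luminal markers was 4180 to 4245 against 5043 to 5330 in the same groups. Their part in the results below was not tested. HSPA5, the ER chaperone BiP, rose by log2 3.42 (SE 0.11) at 12 h and 2.83 (SE 0.10) at 24 h, which checked the treatment labels.

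Levels are described without a test, since the level chose the members. Normalized counts are reads divided by 1 size factor per library. The median LINC gene averaged 25.6 normalized counts, and the range was 10 to 4220. In the lowest class, from 10 to below 20, lay 101 of the 260, and 29 reached 200. Just inside the threshold, 29 genes averaged 10.02 to 11.98, and just outside it 43 LINC genes averaged 8.0 to 9.95. A few loci held much of the signal: LINC00472 alone took 16.3% of the reads in LINC genes, the top 5 took 32.8% and the top 20 took 54.9%. By normalized count the 5 highest were LINC00472, LINC02984, LINC02693, LINC00662 and LINC01806. Per kilobase of exon, the scale on which genes can be compared, the order was LINC00472 at 1226 normalized counts, LINC02595 at 650, LINC02984 at 579, LINC00973 at 487 and LINC01116 at 274. The median over the 260 was 13.9 per kilobase.

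The genes were spread over 23 chromosomes, with 35 on chromosome 1 and 27 on chromosome 2. Their exons covered a median of 2516 bases (375 to 28876) in a median of 4 blocks. In 33 of the 260 the exons formed 1 block, and the bodies of 29 overlapped a protein-coding gene. GENCODE 29, the annotation release used for coordinates on hg38, classed 214 of the 260 as lincRNA, 18 as processed transcript and 13 as antisense. It classed LINC02693 as protein-coding. The library kit does not mark strand, so reads of overlapping genes on opposite strands cannot be told apart. Of the 260, 169 shared no exonic base with another annotated gene and 22 shared over 20% of theirs.

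At 24 h EMD37 changed 101 of the 260 LINC genes: 49 rose and 52 fell. The largest rises were in loci nearly silent in vehicle, such as LINC01471, LINC02392, LINC02474 and LINC01705, while abundant loci moved both ways, with LINC00472 and LINC00662 up and LINC02984 down. The threshold on the mean favours rises from low vehicle levels, as described below. Of the risers 36 changed at least 2-fold, and of the fallers 27. Calls were made by edgeR's quasi-likelihood test at a Benjamini-Hochberg adjusted p below 0.05. The shares called, 18.8% higher and 20% lower, lay near those of all 17863 genes tested, 19.3% higher and 18.5% lower. The median LINC gene had a log2 fold change of -0.16, against -0.02 over all genes. Called rises ran from log2 0.37 to 5.94 and called falls from -0.46 to -2.94.

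**Figure D1:**
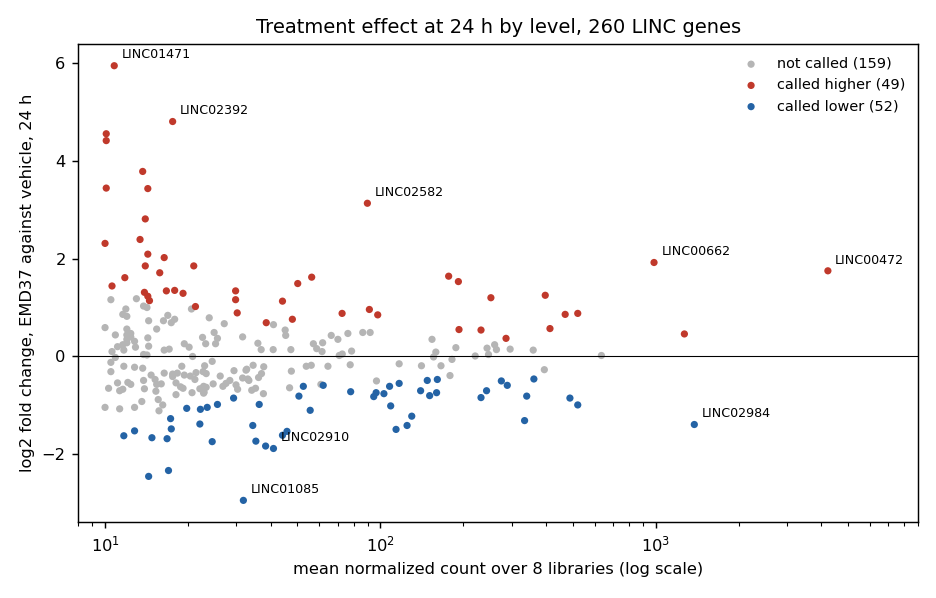
Log2 fold change of EMD37 against vehicle at 24 h for each of 260 LINC genes, plotted against its mean normalized count over 8 libraries (log axis). Red points were called higher (49), blue points lower (52) and grey points not called (159); the highest values lie at the left, among genes averaging 10 to 20.

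LINC00472 (ENSG00000233237, chr6:71344344-71420769, minus strand, hg38) was the most abundant LINC gene. Its RNA has been described as a tumour suppressor in breast cancer. It stood at 2739 and 2622 normalized counts in the vehicle 24 h libraries and at 8845 and 9227 in the EMD37 24 h libraries. This was a 3.36-fold rise (log2 1.75, SE 0.08, adjusted p = 2.36e-12 by edgeR). At 12 h the same gene gave 2545 and 2391 in vehicle and 2688 and 2704 with EMD37, with no call (log2 0.14, SE 0.08, adjusted p = 0.344). Only the 24 h EMD37 pair stood apart among its 8 libraries.

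LINC00662 (ENSG00000261824, chr19:27684580-27793940, minus strand) rose at both times. Vehicle libraries held 446 to 501 normalized counts over both times. EMD37 libraries held 1237 and 1253 at 12 h and 1711 and 1813 at 24 h. The log2 fold changes were 1.41 (SE 0.09) at 12 h and 1.92 (SE 0.09) at 24 h, with adjusted p of 9.05e-10 and 2.72e-12 by edgeR. LINC00513 (chr7:130853720-130928649, plus strand) also rose at both times, from 95 and 107 to 263 and 266 at 12 h and from 75.9 and 90.3 to 288 and 230 at 24 h. Its log2 fold changes of 1.40 (SE 0.16) and 1.64 (SE 0.17) were alike in size, and the difference between them was not called (edgeR adjusted p = 0.566).

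LINC02582 (chr18:73324941-73349878, plus strand) rose 8.74-fold at 24 h, from 32.3 and 26.9 normalized counts to 246 and 276 (log2 3.13, SE 0.20). LINC00973 (chr3:98981058-98983096, plus strand) rose less, from 436 and 364 to 717 and 739 (log2 0.86, SE 0.12). LINC00641 (chr14:21200079-21206900, minus strand) went from 391 and 409 to 751 and 730 (log2 0.88, SE 0.10). LINC02693, the next by level after LINC02984, went from 1034 and 1068 to 1471 and 1430 (log2 0.46, SE 0.08). Each of these 4 passed the edgeR test.

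**Figure D2:**
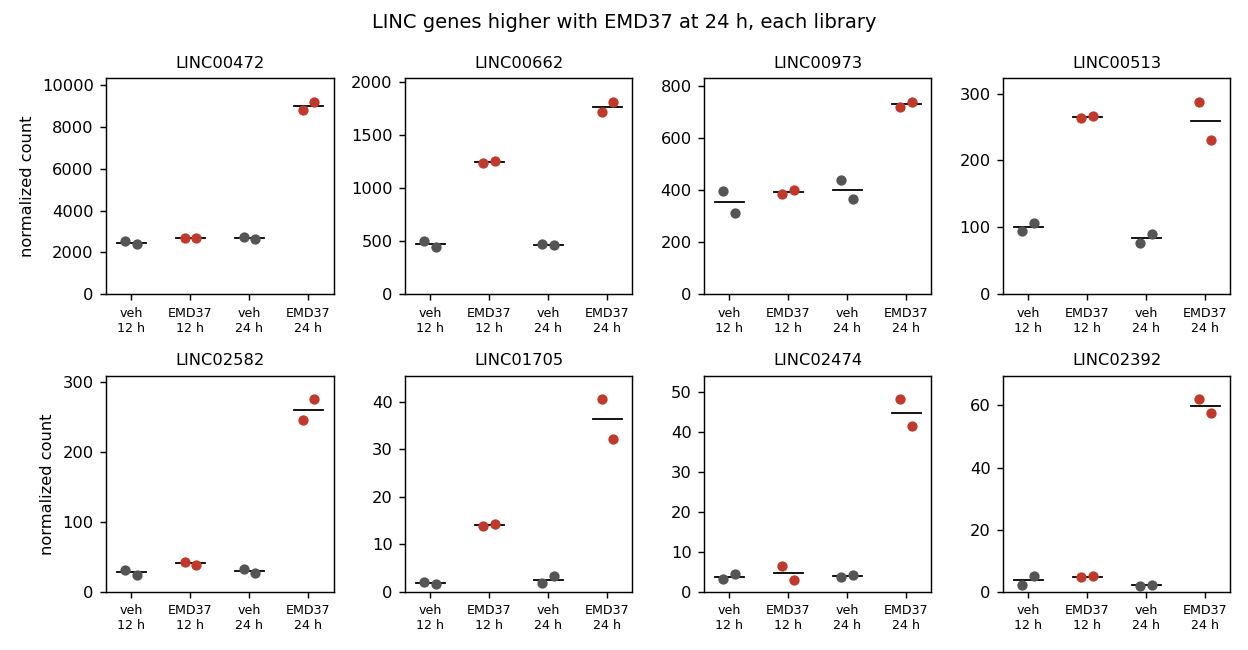
Normalized counts of 8 LINC genes called higher with EMD37 at 24 h, 1 point per library and a bar at the mean of 2, grey for vehicle and red for EMD37, each panel from 0. LINC00662, LINC00513 and LINC01705 are already raised at 12 h, while in LINC00472, LINC00973, LINC02474 and LINC02392 only the EMD37 24 h pair stands apart. In LINC02582 the EMD37 12 h pair (42.6 and 38.5) also lies above the vehicle libraries, without a call.

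Several of the largest rises started from a few reads. LINC02392 (chr12:90280894-90300340, plus strand) had 1.9 and 2.15 normalized counts in vehicle at 24 h and 62 and 57.5 with EMD37 (log2 4.80, SE 0.47, edgeR adjusted p = 1.2e-07). LINC01705 (chr1:222041705-222064763, minus strand) had 1.9 and 3.22 against 40.6 and 32.3 (log2 3.78, SE 0.50). LINC02474 (chr1:221966341-221984964, plus strand) had 3.8 and 4.3 against 48.1 and 41.3 (log2 3.43, SE 0.45). LINC00431 (chr13:110965704-110990579, plus strand) had 2.85 and 2.15 against 35.3 and 22.2 (log2 3.44, SE 0.58). At 24 h these 4 genes were close to absent in vehicle, and their EMD37 libraries all exceeded 20 normalized counts. A gene this low in vehicle could reach the mean of 10 only through higher values elsewhere. The contrast therefore follows in part from how the genes were chosen.

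For 3 more, the vehicle 24 h libraries held 1 to 3 reads in sum, so the ratio is given with an exact 95% binomial interval that covers counting error only. LINC01471 (chr3:127480690-127537780, minus strand) had 1 read in vehicle and 74 with EMD37, a ratio of 76.2 (13.3 to 3050). LINC01686 (chr1:182615254-182616629, plus strand) had 2 and 51 reads, a ratio of 26.3 (6.91 to 223). LINC02019 (chr3:50669989-50672048, plus strand) had 3 and 67 reads, a ratio of 23 (7.54 to 114). Each was called higher by edgeR, with adjusted p of 2.71e-06, 3.01e-05 and 1.25e-05.

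The threshold on the mean favours such genes, since a locus that is low in vehicle could enter only through a high value with EMD37. Of the 260, 24 averaged below 10 over the 4 vehicle libraries, and 15 of these were called higher at 24 h and 0 lower. Among the 236 that averaged 10 or more in vehicle, 34 were called higher (14.4%) and 52 lower (22%). The cut on the vehicle mean favours falls in turn, since it drops genes low in vehicle and uses libraries of the comparison itself. No share of all genes is given under the same cut. The split therefore cannot decide whether LINC genes rose or fell more often than other genes. In the class averaging 10 to below 20 over all libraries, 21.8% of LINC genes were called higher at 24 h and 8.91% lower, against 9.55% and 6.14% of all genes tested. From 20 to below 50 the shares were 10.7% higher and 18.7% lower, against 14.2% and 12.3%. From 50 to below 200 they were 16.4% higher and 34.5% lower, against 16.6% and 22.1%. From 200 upward, 34.5% of 29 LINC genes were called higher and 34.5% lower, against 27% and 26% of all genes. Across all levels, the 2744 other long noncoding genes tested had 14% called higher and 12% lower, at a median level of 18.7. The 12695 protein-coding genes had 22% and 21.9%, at a median level of 288. These shares are descriptions and were not tested against each other.

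Among the falls at 24 h, LINC02984 (ENSG00000237807, chr8:53515171-53523931, minus strand), second by level, was the most abundant. It went from 1699 and 1695 normalized counts in vehicle to 617 and 677 with EMD37 (log2 -1.39, SE 0.09, edgeR adjusted p = 1.82e-10). At 12 h it had already fallen, from 1795 and 1899 to 1281 and 1386 (log2 -0.46, SE 0.08, adjusted p = 0.000961). With another gene it shared 19.6% of its exonic bases. LINC01116 (chr2:176629589-176637931, minus strand), which lies near the HOXD gene cluster, went from 534 and 497 to 260 and 312 at 24 h (log2 -0.85, SE 0.11). LINC00205 (chr21:45288050-45297806, plus strand) went from 710 and 747 to 359 and 377 (log2 -0.99, SE 0.10). In both genes the EMD37 24 h pair was the lowest of the 4 pairs.

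The largest fall at 24 h was that of LINC01085 (ENSG00000248698, chr4:14111968-14140052, plus strand), from 79.7 and 55.9 normalized counts to 7.49 and 10.1 (log2 -2.94, SE 0.33, edgeR adjusted p = 8e-07). LINC01843 went from 14.2 and 26.9 to 3.21 and 4.03 (log2 -2.45, SE 0.57). LINC02910 went from 54.1 and 57 to 15 and 15.1 (log2 -1.88, SE 0.28). LINC01505, whose gene spans chr9:105993310-106740875, went from 56 and 74.2 to 20.3 and 16.1 (log2 -1.83, SE 0.29). These 4 were low or moderate in vehicle, and each fall was called by edgeR.

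The other falls taken by the naming rule were smaller or less firm. LINC01521 fell by 1.74 on the log2 scale (SE 0.37) and LINC02300 by 1.73 (SE 0.32). LINC02915 went from 18 and 8.6 normalized counts to 2.14 and 3.02 (log2 -2.33, SE 0.70, edgeR adjusted p = 0.0121). Without vehicle 24 h A, EMD37 24 h A or EMD37 24 h B its adjusted p was 0.108, 0.0792 and 0.056, so its call rests on each of these 3 libraries. LINC01546 went from 29.4 and 17.2 to 9.63 and 5.04 (log2 -1.68, SE 0.49). Its adjusted p was 0.0957 without vehicle 24 h A and 0.123 without EMD37 24 h B.

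**Figure D3:**
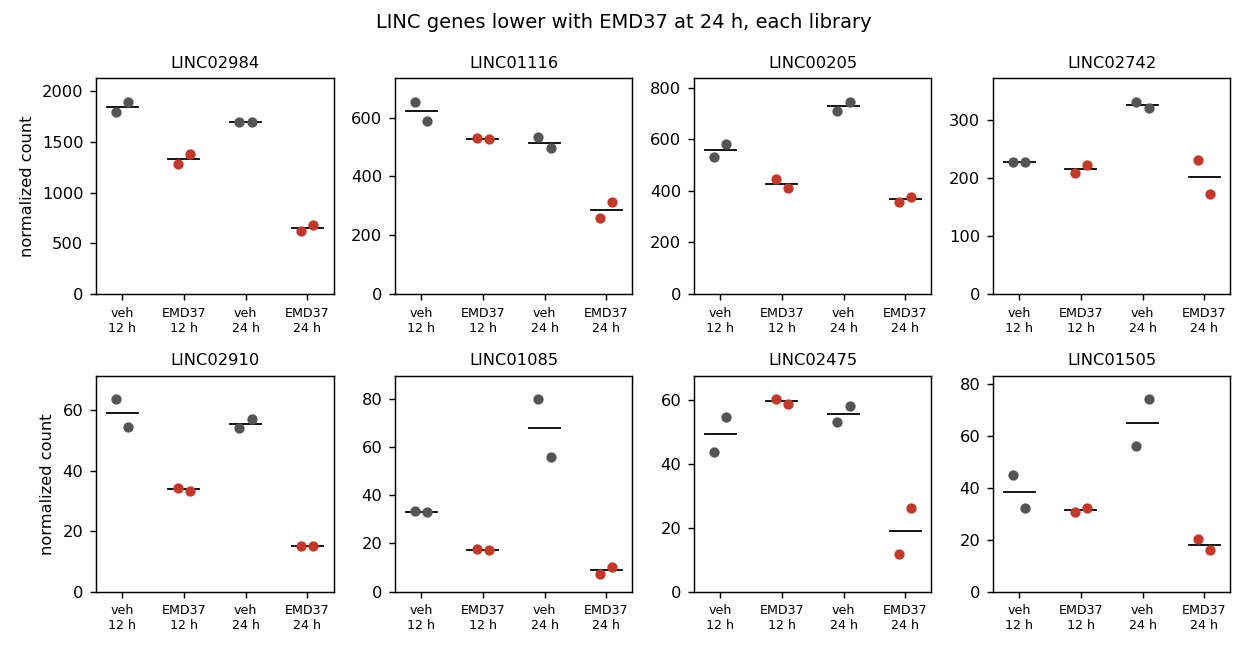
Normalized counts of 8 LINC genes called lower with EMD37 at 24 h, 1 point per library and a bar at the mean of 2, grey for vehicle and red for EMD37, each panel from 0. The EMD37 24 h pair is the lowest pair in LINC02984, LINC01116, LINC00205, LINC02910, LINC01085, LINC02475 and LINC01505, while in LINC02742 the vehicle 24 h pair is the highest.

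At 12 h few LINC genes changed: 7 rose and 8 fell. The rises were those of LINC01705, LINC00662, LINC00513, LINC01583, LINC00632, LINC00641 and LINC02693. The falls were those of LINC01109, LINC01424, LINC01444, LINC01836, LINC02910, LINC02535, LINC02984 and LINC00205. The shares, 2.69% higher and 3.08% lower, compare with 4.78% higher and 2.75% lower over all genes tested. The median log2 fold change was -0.08 over the LINC genes and -0.00 over all genes.

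The largest 12 h rise was in LINC01705, from 2.09 and 1.73 normalized counts to 13.9 and 14.2 (log2 2.82, SE 0.61, edgeR adjusted p = 0.00545). LINC01583 (chr15:82088594-82097694, plus strand) went from 29.2 and 22.5 to 59.3 and 58.8 (log2 1.21, SE 0.27). LINC00632 (chrX:140709562-140793215, plus strand), the locus that gives rise to the circular RNA CDR1as, went from 185 and 207 to 315 and 352 (log2 0.77, SE 0.13, edgeR adjusted p = 0.000442). It was the single 12 h rise without a call at 24 h, when it stood at 228 and 240 in vehicle and 282 and 270 with EMD37. The counts are for the gene, and no circular RNA was measured.

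Of the 12 h falls, LINC01444 (chr18:14969001-14970468, minus strand) went from 103 and 85.8 to 39.8 and 47.6 (log2 -1.10, SE 0.22, edgeR adjusted p = 0.00315). LINC01836 (chr19:782755-785080, plus strand) went from 153 and 178 to 100 and 91.2 (log2 -0.78, SE 0.19). LINC02535 (chr6:85387219-85390186, minus strand) went from 209 and 203 to 134 and 149 (log2 -0.53, SE 0.15). LINC01109 went from 37.6 and 31.2 to 13 and 15.2 (log2 -1.27, SE 0.35), and it shared 37.5% of its exonic bases with another gene. LINC01424 went from 39.7 and 34.7 to 17.6 and 15.2 (log2 -1.15, SE 0.32). At 24 h LINC01109 and LINC01424 had no call, with log2 fold changes of -0.61 and -0.63.

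Of the 15 calls at 12 h, 4 passed with each of the 8 libraries left out in turn, those of LINC00662, LINC00513, LINC00632 and LINC02984. Leaving out any 1 of the 4 libraries of 12 h ended the calls of LINC00205 (adjusted p 0.0816 to 0.298), LINC00641 (0.0948 to 0.258), LINC02693 (0.109 to 0.144), LINC02535 (0.122 to 0.259), LINC01109 (0.0813 to 0.23) and LINC01424 (0.099 to 0.226). The call of LINC02910 ended without any 12 h library or any EMD37 24 h library (0.059 to 0.293). Those of LINC01836 (0.104 to 0.182) and LINC01583 (0.0735 to 0.123) ended without vehicle 12 h B, EMD37 12 h A or EMD37 12 h B. That of LINC01444 ended without EMD37 12 h A (0.0863) and that of LINC01705 without vehicle 12 h B (0.0775). With DESeq2 in place of edgeR the calls of LINC00205, LINC02535 and LINC02910 were lost (adjusted p 0.0521, 0.0821 and 0.209). DESeq2 gave no adjusted p to 2 of the rises and 2 more of the falls, so these were not called there either. Without the filter on low counts those of LINC00641 (0.057) and LINC02910 (0.0553) were lost. In limma that of LINC02910 was lost with a pseudocount of 1 (0.0704) or 0.5 (0.0718), and with every row of the table also those of LINC00205, LINC00641, LINC02693 and LINC01424 (0.052 to 0.0577).

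Of the 7 genes higher at 12 h, 6 were also called higher at 24 h (85.7% of the 12 h list and 12.2% of the 24 h list). Of the 8 lower at 12 h, 6 were also called lower at 24 h (75% and 11.5%). No LINC gene was called in opposite directions at the 2 times.

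**Figure D4:**
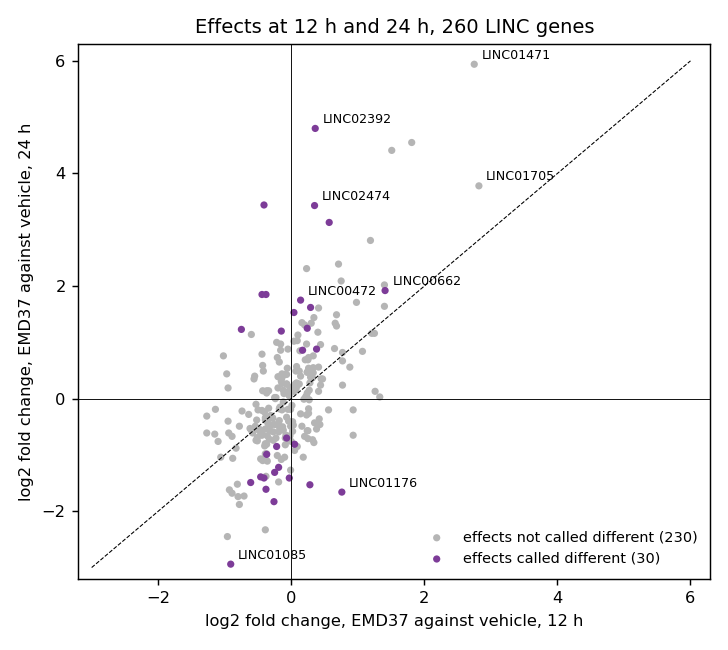
Log2 fold change of EMD37 against vehicle at 12 h (x axis) and at 24 h (y axis) for each of 260 LINC genes. Purple points are the 30 genes whose effects at the 2 times were called different, and the dashed line marks equal effects; LINC00472, LINC02474 and LINC02392 lie near 0 at 12 h and high at 24 h.

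Whether the effect of EMD37 differed between the times was tested as an interaction, the 24 h log2 fold change minus that of 12 h. It was called higher for 15 LINC genes (5.77%) and lower for 15 (5.77%), against 7.25% and 6.43% of all genes. The largest positive differences were those of LINC02392 (log2 4.44, SE 0.93), LINC00431 (3.86, SE 0.96) and LINC02474 (3.07, SE 0.88). LINC00472, with a difference of 1.61 (SE 0.11), had the smallest adjusted p of those named, 1.88e-08 by edgeR. LINC02582 had a difference of 2.56 (SE 0.33), LINC00973 of 0.69 and LINC00662 of 0.51. The largest negative differences were those of LINC01176 (log2 -2.42, SE 0.65), LINC01085 (-2.03, SE 0.49) and LINC02475 (-1.81, SE 0.40).

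LINC01176 (chr7:30390885-30412375, plus strand) had 8.35 and 19.1 normalized counts in vehicle at 12 h and 23.2 and 24.3 with EMD37, without a call. At 24 h it had 17.1 and 16.1 in vehicle and 5.35 and 5.04 with EMD37, a called fall (log2 -1.66, SE 0.52). LINC02475 (chr4:44016861-44022063, plus strand) went from 53.1 and 58 to 11.8 and 26.2 at 24 h (log2 -1.53, SE 0.31) and had no call at 12 h. Several interaction calls rested on single libraries. That of LINC02392 was lost without vehicle 12 h B (adjusted p 0.142). That of LINC00431 was lost without vehicle 12 h A, EMD37 12 h B or EMD37 24 h A (0.0507 to 0.118). That of LINC02474 was lost without vehicle 12 h A, vehicle 12 h B, EMD37 12 h B, EMD37 24 h A or EMD37 24 h B (0.0513 to 0.18). That of LINC01176 was lost without vehicle 12 h A or any 1 EMD37 library (0.0533 to 0.0748).

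Between the 2 vehicle groups few LINC genes differed. At 24 h against 12 h 4 were called higher (1.54%) and 0 lower by edgeR, against 2.64% and 2.45% of all genes. At an unadjusted p below 0.05, 36 LINC genes (13.8%) differed, 18 in each direction, against 21.5% of all genes. DESeq2 called 3 higher and 0 lower, and limma called 2 lower. The 4 were LINC01085, from 33.4 and 32.9 to 79.7 and 55.9 normalized counts (log2 1.05), LINC01444, from 103 and 85.8 to 166 and 179 (0.89), LINC02742, from 227 and 227 to 332 and 321 (0.54), and LINC00205, from 531 and 584 to 710 and 747 (0.40). All 4 were called lower with EMD37 at 24 h, a comparison that uses the same vehicle 24 h libraries. The call of LINC01085 was lost without either vehicle 12 h library, either EMD37 12 h library or vehicle 24 h A (adjusted p 0.0503 to 0.173). That of LINC02742 was lost without any 1 library of 12 h (0.0728 to 0.217), and that of LINC01444 without vehicle 12 h A or B (0.0632 and 0.126). With only the vehicle libraries in the fit 0 of the 4 were called (0.055 to 0.0896 for these 3). In limma the call of LINC01085 was lost (0.0725 to 0.104).

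Between the 2 EMD37 groups, 40 LINC genes were called higher at 24 h than at 12 h (15.4%) and 26 lower (10%), against 15.6% and 13% of all genes. The largest rises were those of LINC02392 (log2 3.59), LINC02019 (3.54) and LINC01471 (3.28). The largest falls were those of LINC02915 (-3.07), LINC01176 (-2.16) and LINC02475 (-1.63). LINC02915 had 31.5 and 13.2 normalized counts in the 12 h EMD37 libraries and 2.14 and 3.02 at 24 h, and it was already lower in the vehicle 24 h libraries, at 18 and 8.6, than in those of 12 h, at 30.3 and 29.5, without a call.

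LINC genes that lie next to each other were compared as a description. Among the 260 there were 22 runs of adjacent LINC genes holding 46 members. In 6 runs 2 genes were called at 24 h, and in 5 of these both moved the same way. Of all 260, 101 were called at 24 h, and no share was taken for runs of other genes. The count therefore cannot tell whether adjacent LINC genes moved together more often than other genes. LINC02474 and LINC01705, on opposite strands of chromosome 1, are the pair with the largest rises (log2 3.43 and 3.78), but at 12 h LINC01705 was called higher and LINC02474 was not (log2 0.35). The remaining pairs are named after their values were seen. LINC01291 and LINC01293 lie on the plus strand of chromosome 2 (chr2:74918148-74938418 and chr2:74940258-74942670). They rose from 131 and 121 to 381 and 352 normalized counts and from 182 and 198 to 428 and 446 at 24 h. LINC00943 and LINC00944, which overlap on opposite strands of chromosome 12, rose by log2 2.02 and 1.49, LINC02725 and LINC02098 on chromosome 11 by 1.29 and 1.71, and LINC00880 and LINC00881 on chromosome 3 by 1.14 and 1.85. In the last pair LINC00880 shared 53.4% of its exonic bases with another gene. The pair that moved apart was LINC01303 and LINC03033 on chromosome 14, which overlap at one end: the former rose by log2 0.54 and the latter went to -0.81.

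Some lincRNAs act on nearby genes, so each LINC gene was set beside its nearest protein-coding gene within 100 kb. There were 196 such pairs, and in 157 both genes were tested. At 24 h both were called in 35 pairs, in the same direction in 26 and in opposite directions in 9. At 12 h both were called in 0 pairs under the same test. Across the 157 pairs the log2 fold changes at 24 h had a Spearman correlation of 0.28 and a Pearson correlation of 0.39. At 12 h the Spearman correlation was 0.09. By distance at 24 h, it was 0.35 from 10 to 100 kb, with 18 of 21 called pairs in the same direction. For pairs apart by up to 10 kb it was 0.17 (7 of 11), and for overlapping gene bodies 0.20 (1 of 3). Some coding genes serve several pairs, as LEKR1 does for LINC00881, LINC00886 and LINC02029. No share for unrelated gene pairs was taken. The points share the same 4 libraries and the same fit, and neighbours can share reads where they overlap.

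LINC01686 lies 10.8 kb from RGS16, a regulator of G protein signalling, which rose by log2 2.52 (SE 0.29) at 24 h. LINC01471 lies 33.5 kb from TPRA1, which rose by log2 1.30 (SE 0.13). LINC00431 lies 50.6 kb from ANKRD10, which rose by log2 0.96 (SE 0.08). LINC01521 starts head to head with PATZ1, a zinc finger transcription factor, at a distance of 0.545 kb, and both fell (log2 -1.74 and -0.79). LINC00472 and its neighbour OGFRL1, 35.4 kb away, moved in opposite directions (log2 1.75 and -0.31). LINC00205, which is 0.152 kb from POFUT2 and divergent from it, fell while POFUT2 had no call (log2 0.23, SE 0.14). Pairs of both kinds were thus present among the genes named. Larger opposite changes lay outside the naming rule and were picked after values were seen. They include LINC00654 and GPCPD1 (log2 -1.31 and 1.21) and LINC02739 and OSBP (-0.81 and 0.87). Of the 35 pairs with both genes called, 26 moved the same way and 9 in opposite directions.

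**Figure D5:**
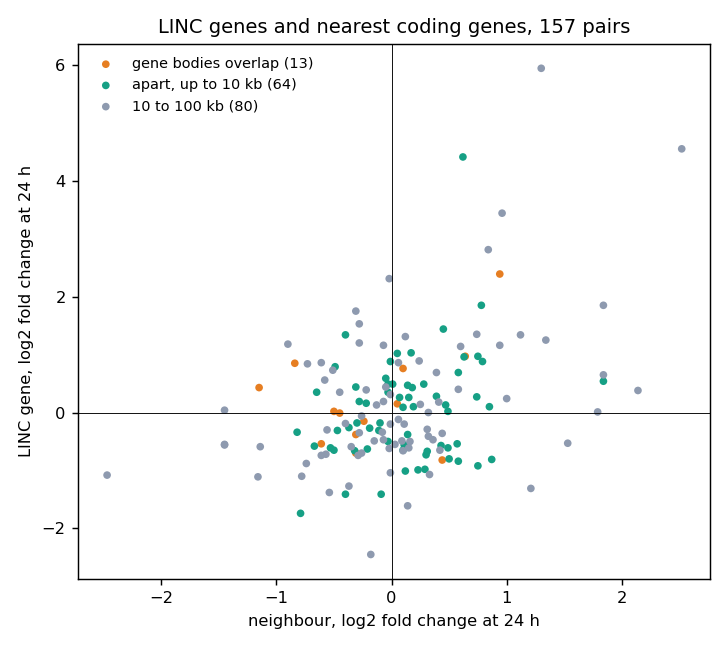
Log2 fold change at 24 h of each LINC gene (y axis) against that of its nearest protein-coding gene (x axis), for 157 pairs within 100 kb in which both were tested, coloured by distance. In 26 of the 35 pairs with both genes called the signs match; the LINC gene with the highest value, LINC01471, lies beside TPRA1 at 1.30.

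Promoters were read from a RefSeq table on build GRCh38.p14, from 250 bases before to 50 after each gene's start. It held 177 of the 260 genes, and in 141 the RefSeq start lay within 1000 bases of the GENCODE start. Of these, 26 were called higher at 24 h, 33 lower and 82 not called. The median GC content was 44.7% in the first class, 53.7% in the second and 56.2% in the third, against 58.7% over all 35116 promoters of the table. Motifs of stress-response factors were searched on both strands. The ATF4 and CHOP composite element core (TGATGNAA), bound by transcription factors of the ER stress response, was found in 3 of 26 promoters of genes called higher (11.5%), 1 of 33 called lower (3.03%) and 4 of 82 not called (4.88%), and in 3.62% of all promoters. The AP-1 motif (TGANTCA) was found in 5 of 26 (19.2%), 3 of 33 (9.09%) and 11 of 82 (13.4%), and in 7.71% of all. The TATA box (TATAAA) was found in 6 of 26 (23.1%), 6 of 33 (18.2%) and 7 of 82 (8.54%), and in 11.5% of all. The class called higher includes genes that reached the mean of 10 only through their EMD37 24 h libraries. The motif shares were not tested and not adjusted for GC content.

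The remaining motifs gave few matches or common ones. The antioxidant response element core (TGANNNNGC) was in 12 of 26, 18 of 33 and 43 of 82, and in 41.8% of all promoters. The XBP1 and ATF6 element (TGACGTGG) was in 1 of the 141, and the cyclic AMP response element (TGACGTCA), which begins with the same TGACGT, was in 4, none of them called. The NF-kB motif was in 2 of the 141. The ER stress response element and the heat shock element were in 0 of the 141, and in 0.0769% and 0.49% of all promoters. A match is a description of these letters and shows no binding.

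The promoters below are those of the 3 genes called higher at 24 h that hold the ATF4 and CHOP core, then those of LINC00472, the most abundant riser, and LINC01085, the largest fall, which hold none. They are printed 5′ to 3′ on the gene's strand, with matches to that core on either strand in capitals. The 5 intervals are LINC00640 at chr14:51333143-51333442 (plus), LINC01730 at chr20:3808244-3808543 (plus), LINC02983 at chr7:5428878-5429177 (minus), LINC00472 at chr6:71420696-71420995 (minus) and LINC01085 at chr4:14111718-14112017 (plus).
LINC00640: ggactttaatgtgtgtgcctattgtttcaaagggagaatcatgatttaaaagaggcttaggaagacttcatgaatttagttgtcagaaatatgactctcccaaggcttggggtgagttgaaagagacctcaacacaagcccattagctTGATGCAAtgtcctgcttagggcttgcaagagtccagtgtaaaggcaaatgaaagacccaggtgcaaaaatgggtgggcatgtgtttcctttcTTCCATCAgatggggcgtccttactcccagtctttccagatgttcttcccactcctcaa
LINC01730: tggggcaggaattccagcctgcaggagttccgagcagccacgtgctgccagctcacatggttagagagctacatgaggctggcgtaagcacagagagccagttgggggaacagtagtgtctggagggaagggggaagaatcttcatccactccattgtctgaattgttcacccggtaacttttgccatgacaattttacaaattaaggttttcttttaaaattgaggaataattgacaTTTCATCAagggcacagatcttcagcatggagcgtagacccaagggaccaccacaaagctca
LINC02983: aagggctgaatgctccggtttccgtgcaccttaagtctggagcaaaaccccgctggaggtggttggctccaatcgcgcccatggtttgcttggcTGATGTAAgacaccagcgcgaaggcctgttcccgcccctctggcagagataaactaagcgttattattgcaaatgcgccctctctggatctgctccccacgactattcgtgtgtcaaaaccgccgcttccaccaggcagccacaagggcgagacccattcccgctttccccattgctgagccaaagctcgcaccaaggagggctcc
LINC00472: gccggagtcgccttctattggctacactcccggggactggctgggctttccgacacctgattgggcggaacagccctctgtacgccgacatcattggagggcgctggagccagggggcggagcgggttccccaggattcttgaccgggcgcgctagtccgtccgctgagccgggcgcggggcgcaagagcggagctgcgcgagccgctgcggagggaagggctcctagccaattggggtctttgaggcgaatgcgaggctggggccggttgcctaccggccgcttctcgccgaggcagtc
LINC01085: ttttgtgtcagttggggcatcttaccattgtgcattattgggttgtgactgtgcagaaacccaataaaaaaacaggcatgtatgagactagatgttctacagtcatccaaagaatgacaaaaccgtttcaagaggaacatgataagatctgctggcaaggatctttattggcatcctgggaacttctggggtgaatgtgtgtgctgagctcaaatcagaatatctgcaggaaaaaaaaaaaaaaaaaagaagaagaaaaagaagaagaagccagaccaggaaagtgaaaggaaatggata

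In LINC00640 the core begins at -102 from the start on the gene's strand and again at -9 on the opposite strand. In LINC01730 it begins at -12 on the opposite strand, and in LINC02983 at -156 on the gene's strand. LINC00640 had 3.8 and 2.15 normalized counts in vehicle and 11.8 and 19.2 with EMD37 at 24 h (log2 2.31, SE 0.60, edgeR adjusted p = 0.00455). Its mean over all 8 libraries was 10.04, so on average its 12 h libraries lay above the vehicle 24 h pair. The 24 h difference of LINC00640 thus rests in part on low vehicle values. LINC01730 had 23.7 and 19.3 against 53.5 and 56.4 (log2 1.34, SE 0.28), and it shared 25.1% of its exonic bases with another gene. LINC02983 had 5.69 and 9.67 against 25.7 and 16.1 (log2 1.44, SE 0.48), with a mean of 10.58 over all libraries. LINC00640 and LINC02983 reached the mean of 10 only through their EMD37 24 h libraries. At 12 h none of the 3 was called, with log2 fold changes of 0.23, 0.30 and 0.34.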

How the data were processed

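Total RNA of 8 libraries was prepared with the TruSeq V2 kit, per the labels' protocols. The submitters' processing notes list FastQC, STAR, DESeq2 and build hg38; roles, versions, read counter and strand setting are not given in the sources used here. As files, the authors deposited read counts per gene and normalized counts (signal), obtained by dividing each library by its size factor (relative range of the ratio 9.67e-10). The count table, as used here, ends within the gene IDs: 146 of the 260 LINC genes are in it. For 6912 IDs beyond its end, 114 LINC genes among them, reads were recovered as normalized count times size factor, and 55296 of 55296 values were whole within 0.01. Both sets entered 1 fit: edgeR 4.0.16 under R 4.3.3, filterByExpr (minimum count 10), TMM (0.934 to 1.037), 1 mean per group, quasi-likelihood test over 17863 genes with 4 residual degrees of freedom. All 260 passed this filter, and those low in vehicle could pass through the EMD37 libraries alone. Standard errors came from the log2 fold change and its F statistic.

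Symbols came from a current gene table (27588 IDs matched); coordinates came from GENCODE 29. On data simulated for the 24 h comparison (17179 genes), the test called 47 of 50 genes raised and 40 of 50 lowered by log2 1, and 50 and 49 of 50 at log2 2. The changed genes were drawn only from those expected to average at least 20 reads per library. All genes were given the same spread. The shares called were not split by level. They give no rate for LINC genes with few reads, such as the 101 averaging 10 to below 20 normalized counts. Genes were named by rule: the 8 largest called rises and falls of each treatment comparison, 3 each way for the other comparisons, and the 5 highest levels by count and per kilobase. Others are named where said, or as the cited neighbours and promoters, after values were seen. The LINC genes, lists and tests were chosen with earlier results of these data known. Alternatives were DESeq2 1.42.0 (test or size factors), limma 3.58.1 on log2 of the normalized count plus 1 or 0.5, other filters, the count table alone, a replicate block, fewer groups and left-out libraries.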

Additional observations from a re-analysis of the deposited data

Results flagged for a closer look

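For 16 of the named LINC genes the effect of EMD37 at 24 h differed from that at 12 h by a called interaction in edgeR. The difference in log2 fold change was positive for LINC02392 (4.44), LINC00431 (3.86), LINC02474 (3.07), LINC02582 (2.56), LINC00472 (1.61), LINC00973 (0.69), LINC00662 (0.51) and LINC00641 (0.50). It was negative for LINC01176 (-2.42), LINC01085 (-2.03), LINC02475 (-1.81), LINC01505 (-1.57), LINC02984 (-0.93), LINC01116 (-0.63), LINC02742 (-0.63) and LINC00205 (-0.62). Groups of 2 libraries are too small for a check of single outlying libraries.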

How the results depend on the processing

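Over 59 named results and 959 recomputed values, 863 kept direction and call, 88 lost the call, 1 gained it and 7 changed sign, none of the last called: LINC02595 at 12 h without EMD37 12 h A (-0.07, and up to 0.15 without another library), and LINC01806 at 24 h with the count table alone or without EMD37 12 h B (-0.00), without vehicle 12 h B or EMD37 12 h A (-0.01), without vehicle 24 h B (-0.08, and up to 0.08 without another library) and without EMD37 24 h B (-0.02). The DESeq2 test called 3 lower at 12 h, 32 lower at 24 h, 9 and 9 for the interaction and 23 higher between EMD37 groups; it gave no adjusted p to 12 named values and, among LINC genes called by edgeR, to 2 higher and 2 lower at 12 h, 6 and 1 for the interaction, 1 and 0 between vehicle groups and 10 and 2 between EMD37 groups, none of them counted as lost. Without a filter, or in each limma fit, 2 were lower between vehicle groups, and limma on every row called 2 higher there. The count table alone, with 146 LINC genes, called 4 higher and 5 lower at 12 h, 25 and 29 at 24 h, 9 higher for the interaction, 1 higher between vehicle groups and 20 between EMD37 groups. With only the groups compared, 11 were higher and 16 lower at 12 h and 0 higher between vehicle groups. The 169 genes with no shared exonic base, an alternative chosen after seeing the data like the vehicle mean and GENCODE 29 names, held 4 higher at 12 h, 9 lower for the interaction and 16 lower between EMD37 groups; the other 2 moved no count beyond 1.5 times.

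Leaving out 1 library gave 3 (vehicle 12 h B) to 9 higher and 2 (EMD37 12 h B) to 16 (vehicle 24 h B) lower at 12 h, 36 to 46 higher and 32 (EMD37 24 h B) to 53 lower at 24 h, 7 (vehicle 12 h A or EMD37 12 h B) to 18 higher and 8 (EMD37 12 h A or B) to 18 lower for the interaction, 0 (either vehicle 12 h library) to 7 (vehicle 24 h A) higher and 0 to 4 (vehicle 24 h A) lower between vehicle groups, and 23 (EMD37 12 h B) to 45 higher and 17 (EMD37 12 h A) to 34 lower between EMD37 groups. A group left with 1 library is assumed to vary like the others. Counts at 12 h also moved beyond 1.5 times without vehicle 12 h A (3 lower) and vehicle 24 h A (14 lower). Deviations of same-lettered libraries correlated at -0.20 to 0.22 across genes. With 2 libraries per group these values cannot settle whether the letters pair samples. With the letter as a replicate block, edgeR counts were 7 higher and 7 lower at 12 h and 50 and 51 at 24 h. They were 14 and 14 for the interaction, 4 and 0 between vehicle groups, and 40 and 26 between EMD37 groups. The 12 h calls of LINC02910 (edgeR adjusted p 0.0597) and LINC00205 (0.0502) were lost with this block. The causes were not tested. Depth limits the genes with few reads, whose fold changes have wide errors.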
